A study of Mus musculus with 5 samples.

Results

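The 10 genes described here, Nkx2-1, Gata6, Grhl1, Grhl2, Grhl3, Elf3, Elf5, Ehf, Ovol1 and Ovol2, encode transcription factors that give lung and airway epithelium its identity. They were taken by symbol, and every probe set annotated to a single one of these symbols was kept, which gave 20 probe sets for 10 of 18193 genes on the array. Expression was measured in 1 group, GFP+ cells sorted from lungs of E17.5 embryos whose parents were FOXJ1-GFP mice crossed to the outbred ICR strain, with 5 biological replicates and 1 Affymetrix array each. FOXJ1-GFP is a reporter that marks multiciliated cells, and no treatment or further allele is named for any sample. Whether each replicate was its own litter is not stated, and the p-values therefore describe variation among these 5 samples, which may be technical.

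Epithelial identity in the lung is held by factors that act at different steps. NKX2-1, a homeodomain protein, and GATA6, a zinc finger protein, mark and shape the lung endoderm and act on genes of the secretory and surfactant-producing cells. The grainyhead-like proteins GRHL1 to GRHL3 activate genes of junctions and barriers, ELF3, ELF5 and EHF are the ETS factors of epithelia, and the zinc finger repressors OVOL1 and OVOL2 hold back mesenchymal regulators such as Zeb1. These roles are background and were not measured here.

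The deposited values are log2 signals, 1 per probe set and array, from 2.37 to 15.11 without the control probe sets, and each pair of arrays had a Pearson's r of 0.987 to 0.994, taken over probe sets as a description. Of 23 measured markers of ciliated cells 22 were above background, as were 59.1% of all genes, with Foxj1 at 12.82 ± 0.08 (SD, n = 5 arrays). Markers of other lung cells were above background as well. Among them were 16 of 16 for endothelium, 14 of 18 for fibroblasts and smooth muscle, 13 of 13 for alveolar type 1 and 13 of 14 for alveolar type 2 cells. These counts therefore do not by themselves single out ciliated cells. In RNA of a sorted population, fewer cells of a type and less RNA per cell cannot be told apart. Above background means that a probe set's mean exceeded 7.83 at an adjusted p under 0.05 (limma, one-sided, Benjamini-Hochberg over 45037 probe sets). That level is the 95th percentile of 186 genes chosen as chemoreceptor genes or genes of other tissues. Of these, 8 were themselves called, so not all of them are silent in these samples. How bright a probe set is also reflects its probes, and levels of different probe sets are therefore not ranked.

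Of the 10 epithelial factors 9 were above background, and Grhl3 was not. Among all 18193 genes 59.1% were above background, so the share of the 10 was larger than that of all genes. All 10 were above 5, as were 81.3% of all genes; the study set this cut-off on average expression in a comparison with another population, and here it is applied to the mean of the GFP+ arrays alone. The same 9 factors had all 5 arrays above 7.83, as did 58.6% of all genes. Taken as single probe sets, 11 of the 20 were above background, against 48.8% of all probe sets of a single gene, a share close to that of the array as a whole, and 19 of 20 were above 5, against 78.4%. Every factor above background had at least 1 probe set below it where it had more than 2.

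Nkx2-1 lay close to background. Its only probe set (1422346_at) read 8.29, 8.64, 7.86, 7.87 and 8.43 in replicates 1 to 5. All 5 arrays were above 7.83, replicates 3 and 4 by less than 0.05 and replicate 2 by most. The mean of 8.22 ± 0.34 (SD, n = 5 arrays) was 0.39 over background (adjusted p = 0.0225, limma). The call was lost without replicate 2 (0.23 over background, adjusted p = 0.12, limma) and without replicate 5 (0.35, adjusted p = 0.0634, limma), and with genes of other tissues alone as background the mean lay below the level (-0.68).

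Gata6, the other factor of the lung endoderm, was above background on its brightest probe set only. That probe set (1425464_at) read 9.88, 9.92, 9.38, 9.45 and 9.73 in replicates 1 to 5. Replicates 3 and 4 were the lowest, as for Nkx2-1. The mean was 9.67 ± 0.25 (SD, n = 5 arrays), 1.84 over background (adjusted p = 4.1e-07, limma). The others, 1425463_at at 7.66 ± 0.28 and 1443081_at at 5.61 ± 0.29, were above 5 but not above background, and all 3 probe sets were lowest in replicate 3. With all probe sets averaged, Gata6 stayed above that setting's background by 0.29 (adjusted p = 0.0248, limma).

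The 3 grainyhead-like genes ranged from the steadiest factor of the 10 to the only one not above background. Grhl2, the main grainyhead-like factor of airway epithelium, read 12.30, 12.31, 12.32, 12.24 and 12.24 in replicates 1 to 5 on probe set 1427046_at. The arrays spanned 0.09, less than for any other of the 10 factors on its brightest probe set. The mean of 12.28 ± 0.04 (SD, n = 5 arrays) was 4.45 over background (adjusted p = 1.53e-10, limma).

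Grhl2 had 4 probe sets, and only this one was above background. The other 3 had means of 7.29 ± 0.23 (1431877_a_at), 6.46 ± 0.42 (1431878_at) and 5.47 ± 0.21 (1452643_at), with each of their 15 values below 7.83. Averaged over all 4, Grhl2 was 0.52 over background (adjusted p = 0.000134, limma), against 4.45 on the brightest probe set.

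Grhl1, known in skin for its action on desmosomal genes, read 9.998, 10.02, 9.75, 9.72 and 9.75 in replicates 1 to 5 (1424030_at). Replicates 1 and 2 were higher than the other 3 without overlap, and all 5 lay within 0.30 of each other. Its mean was 9.85 ± 0.15 (SD, n = 5 arrays), 2.01 over background (adjusted p = 3.52e-08, limma). Grhl3, which is needed for the skin barrier and for neural tube closure, read 7.64, 7.62, 6.71, 7.17 and 7.204 (1436932_at). No array reached 7.83, and replicate 3 was the lowest. The mean of 7.27 ± 0.38 (SD, n = 5 arrays) lay below background (-0.56) and above 5 (adjusted p = 5.67e-07, limma). Grhl3 was above background only where chemoreceptor genes alone set the level (1.85 over 5.42, adjusted p = 2.39e-06, limma).

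**Figure D1:**
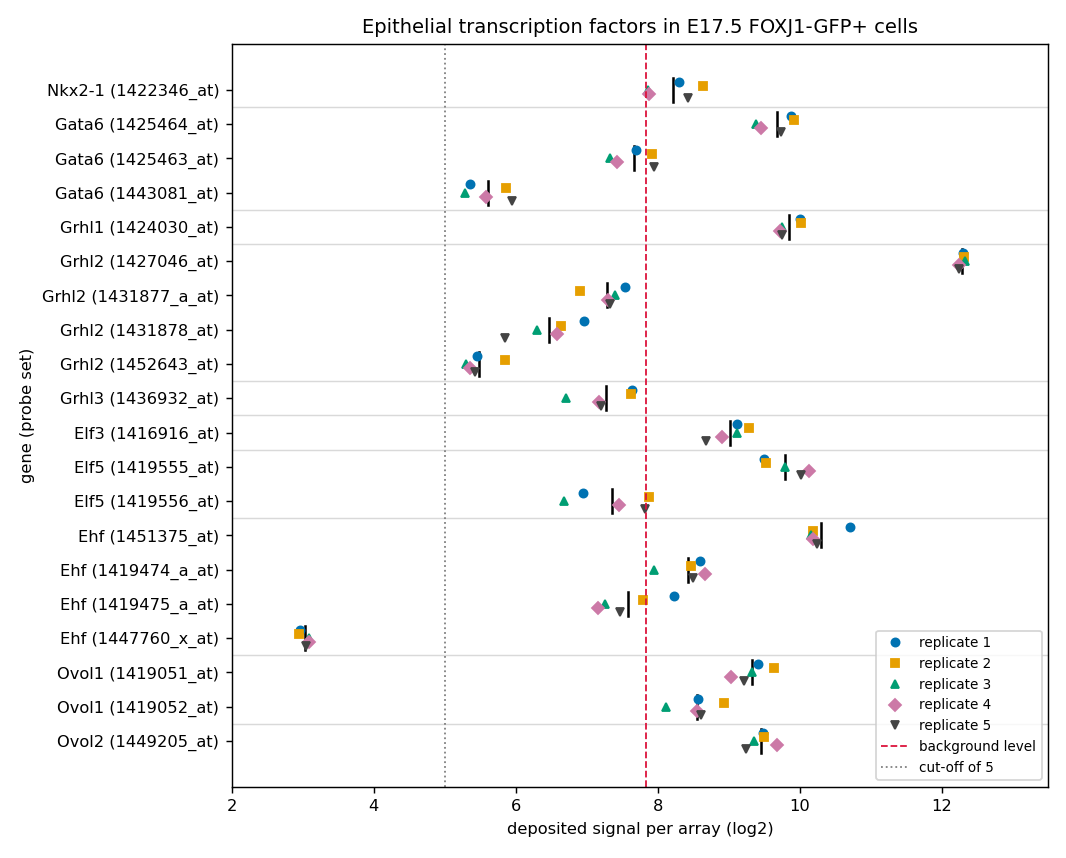
Signal of every probe set of the 10 epithelial transcription factors on each of the 5 arrays of sorted cells. Along the horizontal axis is the deposited log2 signal, each symbol is 1 replicate, the black bar is the mean of the 5, and the vertical lines mark the background level of 7.83 and the cut-off of 5; 11 of 20 probe sets were above background, and Ehf 1447760_x_at at 3.03 was the only one not above 5.

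All 3 epithelial ETS genes were above background. Elf3 read 9.11, 9.28, 9.11, 8.90 and 8.68 in replicates 1 to 5 (1416916_at). Replicate 5 was the lowest and replicate 2 the highest. The mean was 9.02 ± 0.23 (SD, n = 5 arrays), 1.19 over background (adjusted p = 5.63e-06, limma), and with genes of other tissues alone as background it was 0.12 over the level and not called (adjusted p = 0.356, limma).

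Elf5, known as a factor of mammary alveolar cells and of distal lung epithelium, read 9.50, 9.52, 9.79, 10.13 and 10.02 in replicates 1 to 5 (1419555_at). Its order of arrays was unlike that of most of the 10: replicates 1 and 2 were the lowest and replicates 4 and 5 the highest. The mean was 9.79 ± 0.29 (SD, n = 5 arrays), 1.96 over background (adjusted p = 5.68e-07, limma). A further probe set (1419556_at) read 6.95, 7.88, 6.67, 7.45 and 7.82, with a mean of 7.36 ± 0.53, not above background. It spanned 1.21 between arrays, the widest of the 20, and was highest in replicate 2, where the brighter one was low.

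Ehf lies next to Elf5 on chromosome 2, with no other protein-coding gene between them in the RefSeq annotation. It read 10.71, 10.19, 10.16, 10.18 and 10.24 in replicates 1 to 5 (1451375_at). Replicate 1 stood apart, and the other 4 lay within 0.1 of each other. The mean was 10.30 ± 0.23 (SD, n = 5 arrays), 2.47 over background (adjusted p = 4.9e-08, limma). Replicate 1 was thus the highest for Ehf and the lowest for Elf5.

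Of the 4 Ehf probe sets 2 were above background. The other called one, 1419474_a_at, had a mean of 8.43 ± 0.28, and 1419475_a_at, at 7.57 ± 0.44, exceeded 7.83 in replicate 1 only. The last, 1447760_x_at, lay at 3.03 ± 0.07, and its suffix marks probes that can match several transcripts. With the 4 averaged, Ehf was just under that setting's background (-0.028) and lost its call.

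Both Ovol genes were above background. Ovol1 read 9.41, 9.63, 9.33, 9.03 and 9.21 in replicates 1 to 5 (1419051_at), with a mean of 9.32 ± 0.23 (SD, n = 5 arrays), 1.49 over background (adjusted p = 1.15e-06, limma). Its further probe set (1419052_at) was above background too, at 8.55 ± 0.29 (adjusted p = 0.000364, limma). Both were highest in replicate 2. Ovol2 read 9.48, 9.50, 9.35, 9.67 and 9.24 (1449205_at), with a mean of 9.45 ± 0.16, 1.62 over background (adjusted p = 1.98e-07, limma). Its arrays lay within 0.44 of each other, with replicate 4 the highest and replicate 5 the lowest.

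Most of the 10 factors varied between arrays more than the typical gene. On the brightest probe set of each, the range over the 5 arrays was 0.57 in the median (log2 units), with Grhl2 lowest at 0.09 and Grhl3 highest at 0.93. The median range was 0.37 over the 10755 genes above background and 0.43 over all genes. The SD of 8 of the 10 was larger than the median SD of genes above background, which was 0.15. The others were Grhl2 and Grhl1. The median level was 9.56 for the factors, 10.66 for genes above background and 9.07 for all genes. Spread was not compared between genes of matched level.

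Replicates 1 and 2 were on the high side for most factors. In replicate 1 there were 9 of 10 factors above their own mean, all but Elf5, and in replicate 2 there were 8, all but Elf5 and Ehf. Replicates 3, 4 and 5 had 4, 2 and 3 factors above their mean. How many of all genes were above their own mean on each array was not counted. These counts therefore do not set the factors apart from the array as a whole. With each array centred on its median, replicate 3 had 1 factor above its mean and was lowest for 5 of the 10, and after quantile normalization replicate 1 had 8.

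Other values also differed between the arrays. The difference between the 3′ and the 5′ probe set of Gapdh is a sign of how complete the amplified RNA was. It was 1.02, 1.03, 1.43, 1.25 and 1.14 in replicates 1 to 5, lowest in replicates 1 and 2. Mean deviations of the endothelial markers above background, 16 of 16, were -0.54, 0.16, 0.43, 0.08 and -0.14, and their summed signal ran from 14.34 to 15.29 on the log2 scale. Those of fibroblast and smooth muscle markers above background, 14 of 18, were -0.25, 0.12, 0.35, -0.04 and -0.17, with a summed signal of 15.01 to 15.58. Both lists were lowest in replicate 1, where 9 of 10 factors were above their mean. For neuroendocrine markers the mean deviations of the 8 of 12 above background were 0.15, 0.22, -0.15, -0.30 and 0.07, with a summed signal of 12.86 to 13.41 on the log2 scale. They were highest in replicate 2 and low in 3 and 4, as were Nkx2-1 and the brightest probe set of Gata6. Mean deviations of mesothelial markers, 5 of 8 above background, were 0.23, 0.05, -0.37, 0.07 and 0.02, lowest in replicate 3. The part of any of these cells, or of how complete the RNA was, in the spread of the factors was not tested.

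Several marker lists differed between the arrays in part as Elf5 did. For alveolar type 2 markers, the mean deviation of the 13 of 14 above background was -0.61, 0.03, -0.08, 0.04 and 0.62 in replicates 1 to 5, with a summed signal of 15.37 to 16.50 on the log2 scale. Elf5 deviated by -0.29, -0.27, 0.00, 0.33 and 0.23. Both were lowest in replicate 1, but they were highest in different replicates, 5 for the markers and 4 for Elf5. White blood cell markers, 13 of 18 above background, had mean deviations of -0.69, -0.06, 0.15, 0.21 and 0.40. Basal cell markers, 5 of 10 above background, had -0.05, -0.12, -0.04, 0.14 and 0.07, highest in replicate 4 as was Elf5. Club and goblet cell markers, 10 of 13 above background, had 0.08, -0.01, -0.19, 0.25 and -0.13. They too were highest in replicate 4, but lowest in replicate 3. The part of any of these cells in the Elf5 values was not tested. The ciliated markers spanned 0.08 in their mean deviation, which is an average over genes. Singly, they had a median SD of 0.11, with Dnah5 highest at 0.69.

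**Figure D2:**
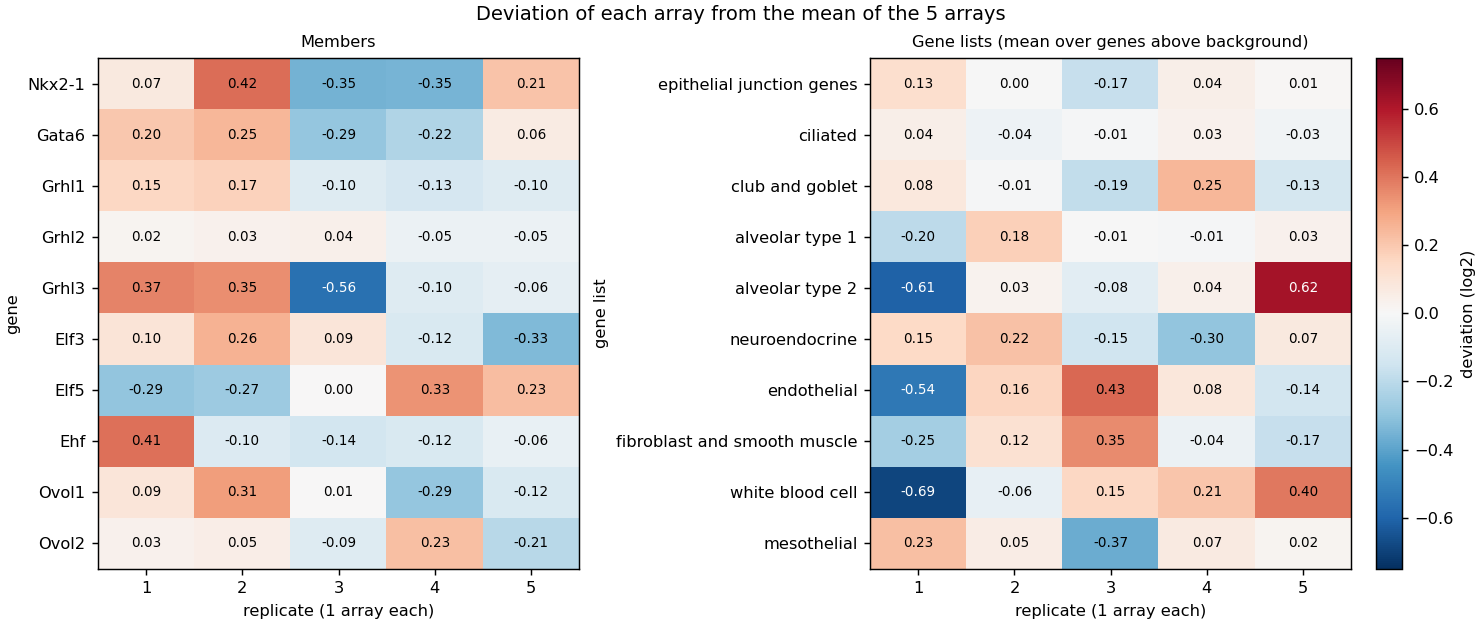
Deviation of each array from the mean over the 5 arrays, in log2 units, for the brightest probe set of each factor (left) and for the mean of the genes above background in each gene list (right). Columns are replicates and red is above the mean; Grhl2 stayed within 0.05 of its mean, Elf5 ran opposite to most factors in replicates 1 and 2, and alveolar type 2 markers ran from -0.61 to 0.62.

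The genes whose deviations over the 5 arrays were most like those of the 3 most variable factors were found by the root mean square difference. With 5 arrays and 10755 genes, close matches arise easily, and these are given as a description. For Grhl3 they were Plekhb2, Bcl2l14 and Tmem9, at differences of 0.033, 0.044 and 0.045. For Nkx2-1 they were Id1, Id3 and Slc16a1, at 0.070, 0.083 and 0.087. For Elf5 they were Hectd3, Cyb5rl and Rpl12, at 0.023, 0.032 and 0.044.

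Relatives of the 10 factors in the same families were mostly not above background. Of 19 measured relatives 6 passed the test, a share under the 59.1% of all genes, and their median level was 7.35 beside 9.07 for all genes. They were Gata2 at 11.24 ± 0.25 (SD, n = 5 arrays), the grainyhead-related genes Tfcp2 at 10.13 ± 0.10, Tfcp2l1 at 8.36 ± 0.39 and Ubp1 at 10.93 ± 0.21, and the broadly expressed ETS genes Elf1 at 11.23 ± 0.17 and Elf2 at 10.39 ± 0.22. Gata2 is known from blood and endothelium, whose markers were above background in 16 of 16 cases for endothelium and 13 of 18 for white blood cells, but 1 of 10 for red blood cells; their part in its level was not tested. The 7 other measured genes of the Nkx2 and Nkx3 families all had means under 7.83, among them Nkx2-2 at 3.27 ± 0.12, Nkx2-3 at 7.58 ± 0.08, Nkx2-4 at 5.38 ± 0.12 and Nkx2-5 at 5.14 ± 0.25. Over probe sets without a suffix, 3 of 16 relatives were above background.

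Other factors of endoderm and airway were above background in 15 of 19 cases, beside 59.1% of all genes. Foxa1, which opens chromatin in endoderm, was at 13.02 ± 0.07 (SD, n = 5 arrays), Foxa2 at 11.44 ± 0.09 and Foxp1 at 12.64 ± 0.20. The exceptions were Foxa3 at 5.85 ± 0.26, the basal cell factor Trp63 at 7.17 ± 0.57, the intestinal factor Cdx2 at 5.09 ± 0.08 and the thyroid and kidney factor Pax8 at 5.19 ± 0.11. The last pair belong to endoderm and organs outside the lung.

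Genes of junctions and the epithelial surface, on which grainyhead-like factors are known to act, were above background in 18 of 20 cases. The share of all genes was 59.1%. Cdh1, which encodes E-cadherin, was at 13.46 ± 0.08 (SD, n = 5 arrays), Epcam at 13.09 ± 0.15 and Cldn3 at 13.43 ± 0.05. Cldn4 was the most variable of the 4 first on the list, at 10.58, 9.94, 8.93, 9.91 and 9.71 in replicates 1 to 5, high in replicate 1 and low in replicate 3 as was Grhl3. Over the 18 junction genes above background, the mean deviations were 0.13, -0.002, -0.17, 0.04 and 0.01 in replicates 1 to 5. They too were highest in replicate 1 and lowest in replicate 3. Prom2 at 7.94 ± 0.26 and Rhov at 6.86 ± 0.12 were not above background.

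Of 11 mesenchymal regulators and adhesion genes, several of which OVOL proteins are known to repress, 7 were above background, a share near that of all genes. Zeb1 read 11.04, 11.67, 11.82, 11.34 and 11.29 in replicates 1 to 5, with a mean of 11.43 ± 0.31 (SD, n = 5 arrays). Replicate 3 was the highest and replicate 1 the lowest, as for the endothelial and fibroblast markers given above, whose part in this was not tested. Zeb2 was at 9.62 ± 0.34 and Snai2 at 9.94 ± 0.30. Snai1 at 7.09 ± 0.34, Twist1 at 6.66 ± 0.33, Twist2 at 7.37 ± 0.28 and Prrx1 at 6.67 ± 0.33 were not above background.

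Secretory and surfactant genes, a class on which NKX2-1 is known to act, were above background in 12 of 12 cases. Scgb1a1 was at 13.99 ± 0.14 (SD, n = 5 arrays), Scgb3a1 at 12.003 ± 0.60, Scgb3a2 at 14.27 ± 0.07 and Sftpa1 at 12.14 ± 0.80. Sftpa1 read 10.99 in replicate 1 and 13.22 in replicate 5. Nkx2-1 read 8.29 and 8.43 in the same arrays. Over the 12 genes, the mean deviation was lowest in replicate 1 (-0.38) and highest in replicate 5 (0.35). Sftpa1 is also in the marker list of the surfactant-producing alveolar cells given above. The part of these cells, or of NKX2-1, in the spread of the 12 genes was not tested. Of 15 genes of the distal tip, 11 were above background, beside 59.1% of all genes. The distal tip is the progenitor region from which airway and alveolar cells arise. Sox9 was at 10.40 ± 0.10, Id2 at 11.83 ± 0.44 and Etv5 at 10.37 ± 0.27. Etv4 at 5.16 ± 0.23, Mycn at 8.02 ± 0.29, Lin28a at 4.13 ± 0.47 and Lin28b at 2.82 ± 0.15 were not.

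**Figure D3:**
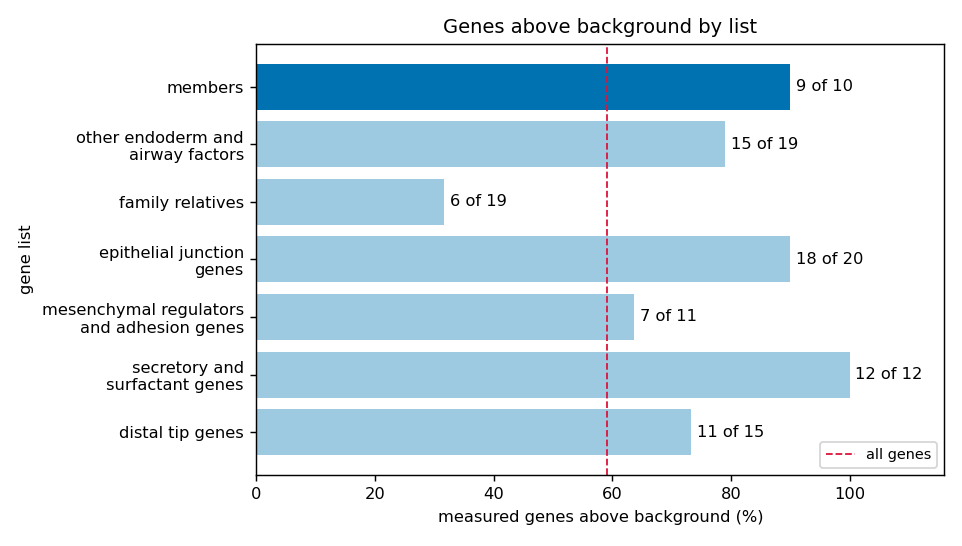
Share of measured genes above background, in percent, for the 10 factors (dark bar) and the gene lists around them, with the count beside each bar. The dashed line marks 59.1% of all genes; 9 of 10 factors lay above background, and 6 of 19 family relatives.

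Promoter sequences from RefSeq (GRCm38.p6) were matched by symbol for 6 of the 10 factors, Elf3, Elf5, Ovol2, Grhl3, Grhl1 and Nkx2-1. Each is a short window that lies mostly before a start site, and 8 such windows were searched on both strands for letters known to be bound by these families: AACCNGTT for GRHL, CAAGTG for NKX2-1, CCGTTA for OVOL, AGATAA for GATA and CCGGAAG for ETS. Of all promoter windows 2.09%, 13.6%, 2.76%, 11.2% and 8.86% held them in this order, and of all genes with a window 2.35%, 15.4%, 3.15%, 12.7% and 9.93%. The letters for GRHL and OVOL can overlap in part, which the windows printed here do not show. The only match in a window of the factors was CAAGTG in that of Elf3. In the lists, AACCNGTT was found in 1 of 14 matched junction genes, Rab25, and also in 1 of 8 secretory and surfactant genes, Muc1, and 1 of 11 distal tip genes, Dusp6. CAAGTG was found in 3 of 8 matched secretory and surfactant genes, Sftpa1 among them, and also in 3 of 18 relatives, 1 of 14 junction genes, 1 of 11 distal tip genes and 1 of 13 other endoderm and airway factors. CCGTTA was found in 0 of 6 matched mesenchymal genes, and in 1 of 18 relatives, Elf2, and 1 of 11 distal tip genes, Etv5. The windows below are examples, chosen among those in which such letters join a factor of the set to a gene above background. Capitals mark the match on either strand, CACTTG being CAAGTG read on the opposite one. A match describes letters and was not tested as a binding site.
Elf3, chr1:135258423-135258722, minus strand: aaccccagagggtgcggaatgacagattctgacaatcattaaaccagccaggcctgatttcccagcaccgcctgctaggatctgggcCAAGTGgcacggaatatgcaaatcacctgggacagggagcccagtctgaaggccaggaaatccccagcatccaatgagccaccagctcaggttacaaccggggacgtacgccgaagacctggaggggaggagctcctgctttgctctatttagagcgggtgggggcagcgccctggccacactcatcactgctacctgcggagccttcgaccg
Rab25, chr3:88548230-88548529, minus strand: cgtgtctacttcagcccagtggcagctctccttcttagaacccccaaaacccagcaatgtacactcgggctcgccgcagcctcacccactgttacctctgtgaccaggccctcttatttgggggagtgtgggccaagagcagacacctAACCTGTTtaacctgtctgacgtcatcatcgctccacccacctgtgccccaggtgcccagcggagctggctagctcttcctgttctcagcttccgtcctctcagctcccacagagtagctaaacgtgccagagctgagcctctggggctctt
Sftpa1, chr14:41131538-41131837, plus strand: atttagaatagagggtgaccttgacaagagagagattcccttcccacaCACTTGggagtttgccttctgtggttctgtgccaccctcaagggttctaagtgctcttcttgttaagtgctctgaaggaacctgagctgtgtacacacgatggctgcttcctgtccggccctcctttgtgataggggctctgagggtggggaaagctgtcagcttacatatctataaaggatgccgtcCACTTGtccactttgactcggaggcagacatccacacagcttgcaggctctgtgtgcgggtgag

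Rab25, which encodes a GTPase of epithelial vesicle traffic, was at 11.59 ± 0.30 (SD, n = 5 arrays), and Elf3 and Sftpa1 had the levels given above. In the Elf3 window the letters begin at position -163 from the start site.

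How many factors were called depended on the level that the background genes set. Grhl2 was above it under every setting tried, whereas with the level raised to their 99th percentile, 10.54, it was the only one of the 10 above it, as were 27.5% of all genes. With chemoreceptor genes alone, at 5.42, all 10 were above it, as were 77.5% of all genes. With genes of other tissues alone, at 8.89, 7 were above it, without Nkx2-1, Elf3 and Grhl3, as were 49.2% of all genes.

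**Figure D4:**
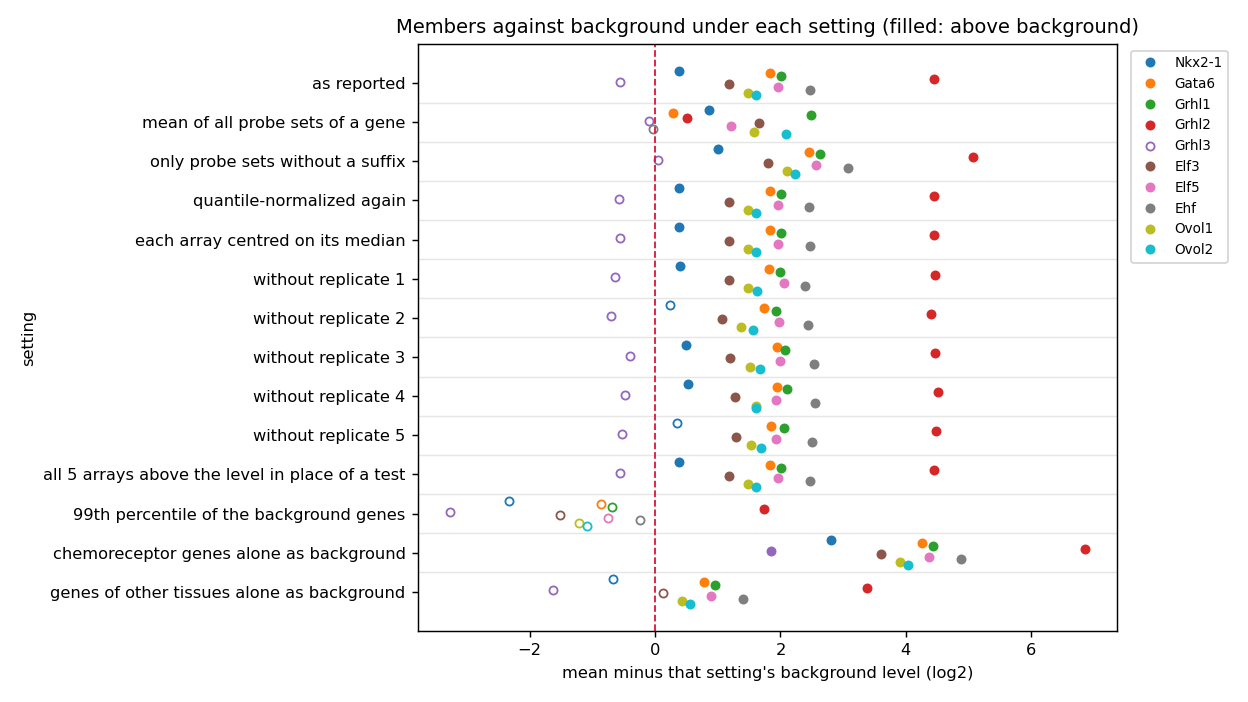
Mean of each factor minus the background level of each processing setting, in log2 units. Rows are settings, colours are genes, filled symbols are above background and open ones are not; Grhl2 is filled in each row, Grhl3 only with chemoreceptor genes alone, and Nkx2-1 is open without replicate 2 or 5 and where the 99th percentile or genes of other tissues set the level.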

How the data were processed

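RNA of 5 samples of GFP+ cells sorted from E17.5 FOXJ1-GFP lungs was amplified and labelled by the authors, hybridised to Affymetrix mouse arrays and analysed with Bioconductor in R. The authors deposited log2 values, already normalized between arrays; how they were summarised and normalized is not stated in the sources, and the scale was judged from the range of the values and their close quantiles. Genes were not centred.

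Of 45101 probe sets, 64 controls were left out, 34945 carried 1 gene symbol, 932 several and 9160 none here. Entrez identifiers of 99.4% of the single-gene probe sets were in the RefSeq table of GRCm38.p6, and 0 symbols changed. Each gene was represented by its probe set with the highest mean. An intercept per probe set was fitted in limma 3.58.1 (lmFit, eBayes) under R 4.3.3, tested one-sided against the background level or 5, and adjusted by Benjamini-Hochberg over 45037 probe sets. Background genes were 78 chemoreceptor genes and 108 genes of other tissues, of which 8 were themselves called, the brightest being Lhb, Pgc and Mbp. Python 3.11.15 with numpy 2.4.6, pandas 2.3.3, scipy 1.17.1 and matplotlib 3.10.9 did the rest. The test was checked on simulated data. Precision is limited by there being 5 arrays.

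The 10 genes, the lists and the background genes were chosen with earlier results of these data known. Named are all 10 factors, the first 4 measured genes of each list, up to 5 members whose call goes against most of it, and the 3 genes nearest in pattern to the 3 most variable factors; other names, such as Rab25, Tfcp2 and the 10 genes' relatives above background, were chosen after their values were seen. Alternatives were averaged probe sets, probe sets without a suffix, quantile normalization, median centring, a call on all 5 arrays, each replicate left out, other background levels and a cut-off of 6.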

Additional observations from a re-analysis of the deposited data

Results flagged for a closer look

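Of 71 sets of 5 values examined, 4 had a highest or lowest array farther from the rest than Dixon's 95% limit allows, and chance flags about 1 in 20. Ehf (1451375_at) read 10.71 in replicate 1 and at most 10.24 in the others. On another probe set (1419474_a_at) Ehf read 7.95 in replicate 3, and at least 8.46 in the others. Grhl2 on its dimmest probe set (1452643_at) read 5.84 in replicate 2 and at most 5.45 in the others, all below background. Twist2 read 6.88 in replicate 5 and at least 7.44 in the others, also below background.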

How the results depend on the processing

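The count of 9 of 10 factors above background was 8 with all probe sets averaged (54.2% of all genes) and 8 to 9 when a replicate was left out (58.4% to 59.3%). It was 7 with genes of other tissues alone (49.2%) and 1 against the 99th percentile of the background genes (27.5%). All 10 were above the cut-off under every setting that tested it, 6 included. Of 20 probe sets, 11 were above background (48.8% of all single-gene probe sets), and 10 to 11 when a replicate was left out (48.0% to 49.1%). The count was 17 with chemoreceptor genes alone (73.7%), 7 with genes of other tissues alone (37.9%) and 1 with the 99th percentile (19.1%). With the 99th percentile, distal tip genes above background numbered 4 of 15, mesenchymal genes 4 of 11 and relatives 3 of 19, beside 27.5% of all genes. With chemoreceptor genes alone, mesenchymal genes numbered 11 of 11 and relatives 14 of 19, beside 77.5% of all genes. Over probe sets without a suffix, relatives numbered 3 of 16, beside 60.0% of all genes. Against the 99th percentile the means turned to below the level for Ehf (-0.24), Elf3 (-1.52), Elf5 (-0.75), Gata6 (-0.87), Grhl1 (-0.69), Nkx2-1 (-2.32), Ovol1 (-1.22) and Ovol2 (-1.09). Against genes of other tissues Nkx2-1 turned (-0.68), with all probe sets averaged Ehf turned (-0.028), and against chemoreceptor genes Grhl3 turned to above the level (1.85). Apart from the averaging, these shifts follow from the higher or lower level itself. Median range between arrays of the 10 factors was 0.47 to 0.57 when a replicate was left out. No paired analysis was possible because there is only 1 group. The number of arrays, and probe sets close to background such as that of Nkx2-1, limit the calls.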
